A study of Homo sapiens with 8 samples.

Results

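The regions described here are those in which a chromatin accessibility peak was called in LX-2 cells on one matrix and not on the other after 2 days of culture. Overlapping peaks (1 bp or more) of the 4 day 2 lists were joined into 79868 merged regions. A region was called stiff-only if both libraries of cells cultured on the stiff matrix had a peak in it and neither library from the soft matrix did, and soft-only in the opposite case. By this rule 5730 regions were stiff-only and 295 were soft-only, 6025 regions together, and 25367 had a peak in all 4 lists. The 8 lists of the study merge into 102366 regions. LX-2 cells, immortalised hepatic stellate cells of human origin, were of wild type genotype, received no other agent and were seeded on polyacrylamide hydrogels of about 2 kPa (D2 soft) or about 40 kPa (D2 stiff) and collected on day 2, or on day 4 for the groups D4 soft and D4 stiff. ATAC-seq, in which a transposase inserts adapters into open chromatin, was carried out on 2 replicate libraries per group. The methods call the replicates biological, the labels do not say whether they came from separate cultures, and all came from 1 cell line. A peak that appears on one matrix can mean that more of the cells were open there or that the site was more open in each cell, and the 2 cannot be told apart in bulk libraries.

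Hepatic stellate cells store vitamin A in the normal liver and turn into matrix-producing myofibroblasts when the liver scars and stiffens. Stiffness is sensed through integrins and the actin cytoskeleton. Among the factors known to carry that signal to chromatin are YAP and TAZ, which bind DNA through the TEAD proteins, the AP-1 proteins of the JUN and FOS families, and SRF with its MRTF partners. Most sites bound by TEAD and AP-1 proteins are distal enhancers rather than promoters.

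Sequences around the summits of 6 of these regions are printed as examples that hold an AP-1 or TEAD motif and were not counted as repeated, as defined below. The motif was required. Either motif was found in 48.0% of stiff-only and 39.7% of soft-only regions, so the examples do not stand for all of them. The first 3 are the best-ranked named stiff-only regions that hold an AP-1 or TEAD motif, the CCN2 region was added after the values were seen because CCN2 is a well-known YAP target, and the last 2 are the best-ranked such soft-only regions. Each covers 201 bases of hg19 (GRCh37), 5' to 3', named by its nearest protein-coding gene. Capitals mark the AP-1 motif, TGAGTCA or TGACTCA, or the TEAD motif, GGAATG or its reverse complement CATTCC.
TAS2R1, chr5:9851668-9851868, plus strand: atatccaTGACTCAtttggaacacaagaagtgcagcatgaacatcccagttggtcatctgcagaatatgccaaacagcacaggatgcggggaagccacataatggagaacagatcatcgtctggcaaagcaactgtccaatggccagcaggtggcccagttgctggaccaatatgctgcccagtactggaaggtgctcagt
CDH9, chr5:28286782-28286982, plus strand: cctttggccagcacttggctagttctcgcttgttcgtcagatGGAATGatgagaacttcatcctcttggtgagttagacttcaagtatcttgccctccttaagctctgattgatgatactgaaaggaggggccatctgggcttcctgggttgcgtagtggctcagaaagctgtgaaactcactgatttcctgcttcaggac
GATA6, chr18:19803712-19803912, plus strand: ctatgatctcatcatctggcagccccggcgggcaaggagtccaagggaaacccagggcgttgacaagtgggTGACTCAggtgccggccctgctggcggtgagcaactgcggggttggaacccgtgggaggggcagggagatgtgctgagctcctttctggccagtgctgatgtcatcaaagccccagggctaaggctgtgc
CCN2, chr6:132329058-132329258, plus strand: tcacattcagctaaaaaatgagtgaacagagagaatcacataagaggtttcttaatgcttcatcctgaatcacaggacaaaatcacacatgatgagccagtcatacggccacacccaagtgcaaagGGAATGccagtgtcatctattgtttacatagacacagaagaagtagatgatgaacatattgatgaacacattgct
FGGY, chr1:59798745-59798945, plus strand: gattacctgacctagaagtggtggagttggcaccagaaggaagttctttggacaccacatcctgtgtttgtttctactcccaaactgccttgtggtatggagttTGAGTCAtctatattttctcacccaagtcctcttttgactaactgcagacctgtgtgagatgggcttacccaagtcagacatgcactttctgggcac
TNS1, chr2:218550028-218550228, plus strand: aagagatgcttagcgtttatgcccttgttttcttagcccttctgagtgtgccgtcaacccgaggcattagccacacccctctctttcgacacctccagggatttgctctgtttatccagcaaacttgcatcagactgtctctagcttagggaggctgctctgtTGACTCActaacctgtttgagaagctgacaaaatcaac
The GATA6, TAS2R1 and TNS1 windows hold TGACTCA, the FGGY window holds TGAGTCA, and the CDH9 and CCN2 windows hold GGAATG. The motif nearest the summit was that of FGGY, whose centre lay 7 bases from it, and the one farthest away was that of TAS2R1 at 90 bases.

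Far more regions were stiff-only than soft-only, but the number of soft-only regions rested on 1 library. Stiff-only regions made up 7.17% of the merged regions and soft-only regions 0.369%. D2 soft replicate 1 had 29789 peaks, D2 soft replicate 2 had 55754, D2 stiff replicate 1 had 59277 and D2 stiff replicate 2 had 63684. In the same order, estimated depths were 0.780, 2.08, 2.32 and 2.19 fragments for each kb of genome, so that D2 soft replicate 1 stood apart as the shallowest library. Of 6010 regions that D2 soft replicate 2 had and no stiff list had, D2 soft replicate 1 also held 295, or 4.91%. Of 6528 regions in both stiff lists and absent from D2 soft replicate 2, D2 soft replicate 1 lacked 5730, or 87.8%. Without D2 soft replicate 1, and with regions merged again, 6537 regions were stiff-only and 6033 were in D2 soft replicate 2 alone, a setting in which one side has a single library. With each list cut to the 29789 peaks of lowest p, the counts were 1569 and 1248. No p was computed for these counts, since the smallest that permutations of 2 and 2 libraries allow is 0.333.

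**Figure D1:**
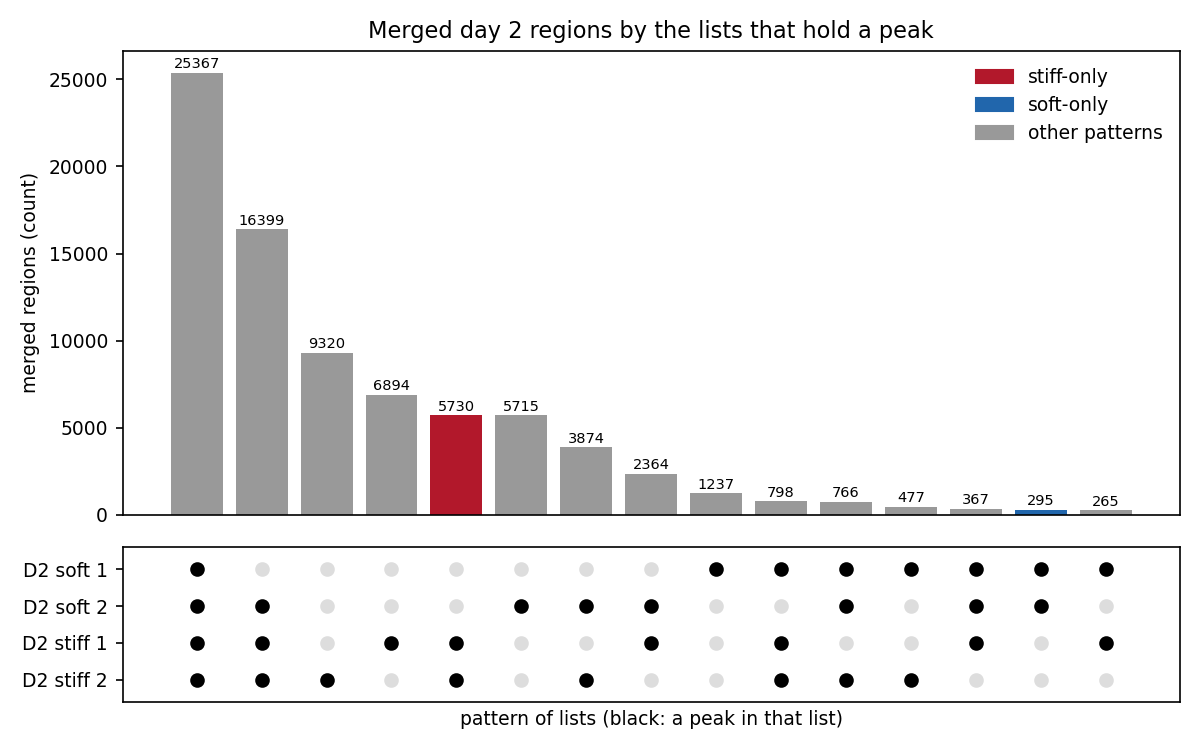
Number of merged day 2 regions (vertical axis, count) for each pattern of lists with a peak, shown by black dots below. The 5730 stiff-only regions are in red and the 295 soft-only regions in blue. The pattern in which only D2 soft replicate 1 lacks a peak holds 16399 regions, and D2 soft replicate 2 alone holds 5715.

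Replicates of one matrix also differed in the regions they held. D2 stiff replicate 1 had 9890 regions that D2 stiff replicate 2 lacked, and the latter had 14437 that the former lacked. D2 soft replicate 2 had 10650 regions absent from D2 stiff replicate 1, which had 13687 absent from D2 soft replicate 2. Between D2 soft replicate 2 and D2 stiff replicate 2 the numbers were 8741 and 16325. The differences between these single libraries of different matrices were therefore of the same order as those between the 2 stiff replicates.

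The stiff-only regions were mostly small, distal and low in their lists. Their median width was 374 bp, against 507 bp for soft-only regions and 828 bp for regions in all 4 lists. Fold enrichment, the pileup of fragments at the summit over the local background of the same library, was ranked within each list. The median stiff-only region stood at percentile 29.4 of D2 stiff replicate 1 and 33.1 of D2 stiff replicate 2, with median pileups of 9 and 11 fragments. Regions in all 4 lists stood at 72.4 and 72.8 in the same libraries, with pileups of 21 and 29. Of the stiff-only regions 785, or 13.7%, ranked above the median of both stiff lists, and 5 of the soft-only regions, or 1.69%, did so in both soft lists. No peak of D2 soft replicate 1 was shorter than 294 bp, and 1421 stiff-only regions, 24.8%, were narrower than that. Soft-only regions cannot be so narrow, since each holds a peak of that library. Among the 6980 regions in 1 soft and 1 stiff list, 14.6% were as narrow, and the part of peak width in the calls was not tested.

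By position, 522 stiff-only regions, 9.11%, had their centre within 1 kb of a protein-coding transcription start, compared with 17 soft-only regions (5.76%), 10.7% of regions in 1 soft and 1 stiff list, 32.3% of regions in all 4 lists and 18.5% of all merged regions. The median distance to a start was 29.6 kb for stiff-only, 40.1 kb for soft-only and 14.4 kb for regions in all 4 lists. Introns held 2639 stiff-only regions (46.1%), intergenic sequence 2717 (47.4%) and exons 374 (6.53%). Among soft-only regions the shares were 46.1%, 48.5% and 5.42%. The stiff-only regions were spread over the genome, with 6.30% to 8.14% of the merged regions of each autosome. The stiff-only share close to starts was 16.5% without D2 soft replicate 2, the deeper soft library, and 8.66% to 9.91% without each of the others.

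**Figure D2:**
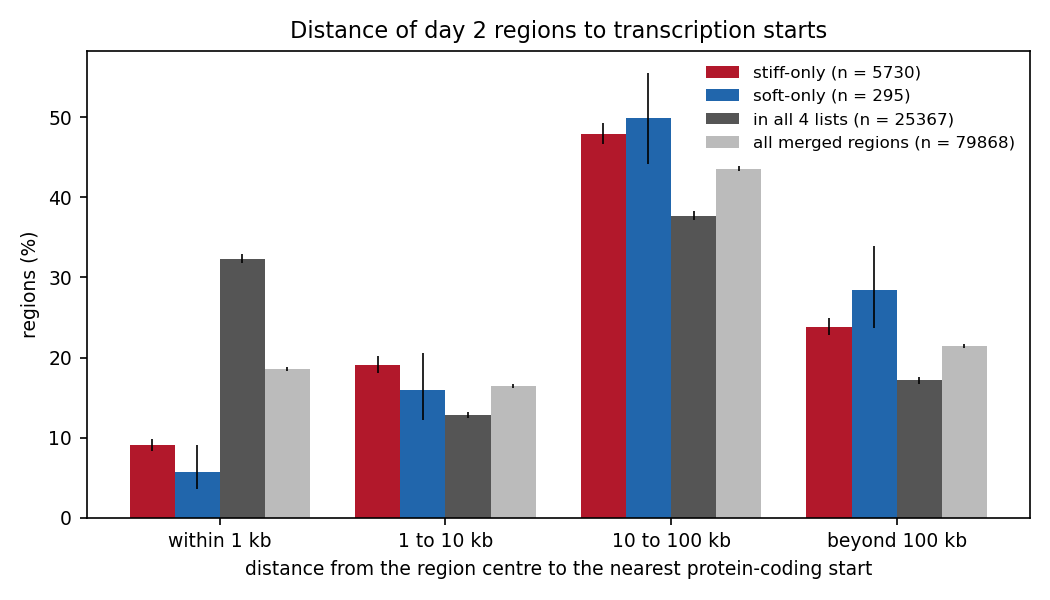
Share of regions (vertical axis, percent) by distance from the region centre to the nearest protein-coding transcription start (horizontal axis). Bars are stiff-only, soft-only, all-list and all merged regions, and error bars are Wilson 95% intervals that cover counting error only. Within 1 kb the stiff-only bar stands at 9.11%, the soft-only bar at 5.76% and the bar of regions in all 4 lists at 32.3%. The bars are of the full lists, and the order of stiff-only and soft-only differed in other settings.

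The best-ranked stiff-only regions were high in both stiff lists, but most of them lay in sequence with further copies in the genome. A region was counted as repeated if at least 50% of the 31-base words around its summit occurred elsewhere in GRCh37. This held for 6 of the 10 best-ranked stiff-only regions, for 142 of all 5730 (2.48%), for 9 of 295 soft-only regions and for 2.51% of all merged regions. The first in rank lay at chr5:71146741-71146941, 132 kb from the start of CARTPT, which encodes a neuropeptide, and had fold enrichments of 20.9 and 19.8 in the stiff lists and no peak in any day 4 list. The region at chr1:39984994-39985226, in an intron of BMP8A, which encodes a bone morphogenetic protein, had 18.8 and 17.6 on day 2, and on day 4 had a peak only in D4 stiff replicate 2, with 22.9. Both were repeated, as were the regions nearest to TPTE, WASH6P, FAHD2A and NBPF9.

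Among those that were not repeated, the region at chr9:106127087-106127416, 370 kb from CYLC2, had fold enrichments of 14.4 and 15.2 on the stiff matrix and had peaks in all 4 day 4 lists. An intronic region of CSNK2A1, the catalytic subunit of casein kinase 2, at chr20:509917-510320, had 13.6 and 16.2 and also had peaks in all 4 day 4 lists. The region at chr5:9851678-9851901 near TAS2R1, a bitter taste receptor gene, whose sequence is printed above, had 13.5 and 14.5. It had no peak in either D4 soft list and had 11.6 and 11.5 in the D4 stiff lists, so it was the 1 region of these 10 with peaks in both stiff and neither soft list on both days. The region 8.29 kb from YTHDC2, an RNA helicase gene, had 12.6 and 16.2, and on day 4 was missing from D4 stiff replicate 2 alone.

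None of the 10 best-ranked soft-only regions was repeated. An intronic region of FGGY, a carbohydrate kinase gene, at chr1:59798535-59799417 had 6.28 in D2 soft replicate 1 and 12.0 in D2 soft replicate 2. An intronic region of PTPRM, a receptor phosphatase of cell contacts, at chr18:7982039-7982745 had 6.21 and 10.7. An intronic region of DKK2, a secreted modulator of WNT signalling, at chr4:108179528-108179971 had 6.16 and 9.87. In each the shallow library gave the lower value. The regions at chr2:218549844-218550234, 157 kb from TNS1, a focal adhesion protein gene, with 5.95 and 10, and at chr10:112185742-112186099, 71.7 kb from DUSP5, a phosphatase of ERK, with 6.02 and 8.78, followed in the same order of libraries. The other 5 lay nearest to RBM43, GRB10, OGFRL1, KIF5B and RPL34. On day 4, every one of the 10 soft-only regions had a peak in at least 1 list, and the FGGY region had 10.8 and 7.79 in the D4 soft lists, with 8.40 and 9.49 in the D4 stiff lists. Lists of equal length, which keep the strongest peaks of each list, left 37 of the 137 named stiff-only regions and 8 of the 22 named soft-only regions one-sided as before. The other 100 and 14 were not, among them the named regions of COL8A1, JUN, CCN2, WWTR1 and CITED2 described next.

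**Figure D3:**
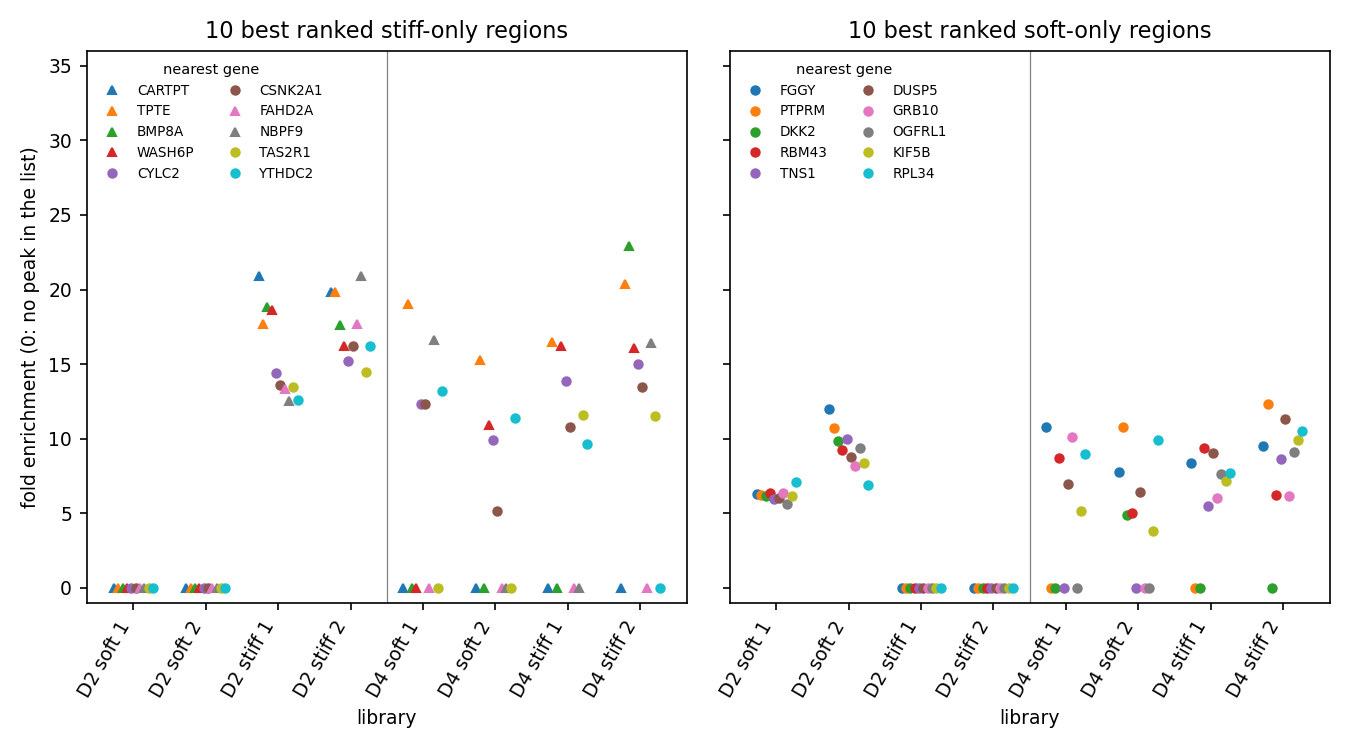
Fold enrichment (vertical axis, ratio to local background, not comparable in size between libraries) of the 10 best-ranked stiff-only (left) and soft-only (right) regions in each of the 8 libraries, with 0 where the list had no peak. Each colour is a region named by its nearest gene, and triangles are repeated sequences. The stiff-only regions reach 12.5 to 20.9 in the D2 stiff lists, and the soft-only regions 5.65 to 12.0 in the D2 soft lists.

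At promoters few genes differed. Of 13490 protein-coding genes with a day 2 peak within 1 kb of a start, 9111 had one in all 4 lists, 276 (2.05%) in both stiff lists and neither soft list, and 9 (0.0667%) in both soft lists and neither stiff list. The best-ranked stiff-only promoter regions were those of SLC25A26, a mitochondrial carrier, with fold enrichments of 10.5 and 13.7, and of DKK2, with 10.4 and 11.8. They were followed by NPRL3, a regulator of mTORC1 (10.9 and 11.2), PDXDC1 (10.6 and 11.0) and DCLK1, a kinase that binds microtubules (10.9 and 10.1). DKK2 thus had a stiff-only region 128 bp from its start and 1 of the best-ranked soft-only regions in its intron. Of these 5 promoters, all had peaks in both D4 stiff lists and in D4 soft replicate 1. On the soft side the best-ranked were PHEX, an endopeptidase of bone mineral handling (6.38 and 6.72), CDH18, a cadherin (6.88 and 6.06), CAMK2G (4.46 and 5.70), BLVRA, a biliverdin reductase (4.14 and 5.92), and MCRIP1 (5.33 and 4.00). All 5 had peaks in both D4 stiff lists as well.

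Of the nearest genes, 4090 of 16477 (24.8%) had at least 1 stiff-only region and 282 (1.71%) at least 1 soft-only region. PCDH7, a protocadherin, had the most, with 12 stiff-only regions of 80 nearest to it. KCNMA1, a calcium-activated potassium channel, had 10 of 51, CITED2, a transcriptional co-regulator, 10 of 51, CDH9, a cadherin, 9 of 105, and HTR2A, a serotonin receptor, 8 of 23. ID2 and TMEM132C also had 8. This order is by count and takes no account of how many regions lay nearest to a gene. The stiff-only shares of CDH9 (8.57%) and TMEM132C (9.09%) were close to the 7.17% of all regions. Those of the other genes named here were higher, up to 34.8% for HTR2A, and no share was tested. The PCDH7 regions lay from 726 bp to 2683 kb from its start, 2 of them in introns and 10 in intergenic sequence, and 5 of the 10 KCNMA1 regions lay in introns. The best ranked of the PCDH7 regions, at chr4:31176799-31177310 with an AP-1 motif, had 10.1 and 15.3 in the stiff lists. Nearest gene is a matter of position only. The gene with most soft-only regions was KIT, a receptor tyrosine kinase, with 3, named after its value was seen.

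Genes of AP-1 proteins had 11 stiff-only regions of 97, 11.3%, above the 7.17% of all regions, and 1 soft-only region. ATF3, a stress-induced partner of JUN, had 3 of 8, JUN had 2 of 26, FOSL2 had 2 of 20 and JUNB had 1 of 3, and no such region lay nearest to FOS, FOSB, FOSL1, JUND, ATF2, MAFF or MAFK. The best ranked was 5.38 kb from JDP2, a repressor of AP-1 (chr14:75888858-75889212), with 12.4 and 11.8 in the stiff lists and 9.17 and no peak in the D4 soft lists. It held neither the AP-1 nor the TEAD motif. The region near BATF3, with an AP-1 motif, had 6.20 and 9.82. The 2 regions of JUN were weaker. At chr1:59239101-59239393, 10.5 kb from the start, the values were 7.07 and 9.32, and at chr1:59245440-59245810 they were 3.09 and 3.42. The promoter of JUN had a peak in every list, with 7.19 and 8.88 in D2 soft, 9.73 and 8.81 in D2 stiff. FOSL2 also had a soft-only region, with 3.42 and 5.22, beside a stiff-only region with 6.51 and 6.29 in an intron of its neighbour BABAM2. With lists of equal length the named regions of JUN, FOSL2 and BATF3 were no longer one-sided as before, and that of JDP2 was.

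Hippo pathway and TEAD genes had 16 stiff-only regions of 202 (7.92%) and 1 soft-only region, and YAP target genes 28 of 375 (7.47%) and 1, both shares close to that of all regions. WWC1, an upstream activator of the LATS kinases, had 3, and TEAD4, AMOTL2 and VGLL3 had 2 each. The best ranked, in an intron of TEAD4 at chr12:3143306-3143737, had 9.19 and 9.93. WWTR1, which encodes TAZ, had a stiff-only intronic region with a TEAD motif at chr3:149323609-149324000 (7.19 and 8.05, and on day 4 peaks in the stiff lists only, 6.73 and 8.03). It also had a soft-only one at chr3:149333454-149333957 (4.14 and 7.49) with an AP-1 motif. AMOTL2, a YAP target and inhibitor, had a region 23.2 kb away holding both motifs (5.97 and 7.06).

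CCN2, a matricellular YAP target of fibrotic tissue, had 2 stiff-only regions of 18. The better ranked of these, 56.7 kb upstream and shown above with its TEAD motif, had 8.48 and 8.99. On day 4 it had 11.4 and no peak in the D4 soft lists, but 9.92 and 10.4 in the D4 stiff lists. Regions near GADD45A (8.67 and 8.59), TGFB2 (8.40 and 8.61) and F3 (5.93 and 10.5) were next, and CCN1, AXL, AJUBA and NUAK2 had none. The promoter of ANKRD1 had a peak in every list. The promoter of CCN2 had none in D2 soft replicate 1 and 7.21, 5.78 and 6.37 in D2 soft replicate 2 and the 2 stiff libraries, so by the rule it was not stiff-only.

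Contractile genes had 9 stiff-only regions of 109 (8.26%) and SRF and MRTF genes 12 of 163 (7.36%), both near the 7.17% of all regions. The best ranked of the contractile genes, 8.37 kb from SMTN, which encodes smoothelin, had 8.84 and 11.3 and, on day 4, peaks in the stiff lists only (9.28 and 9.29). The region in ACTN1, the actin crosslinker alpha-actinin, had 8.82 and 6.76, that of CNN1, calponin, 651 bp from its start, had 5.89 and 8.93, and that of CALD1, caldesmon, had 6.52 and 5.17. The promoter of CNN1 as a whole was not stiff-only, since another peak within 1 kb of the start had 5.98 in D2 soft replicate 2. CALD1 had a soft-only region too, with 3.89 and 4.86. FHL2 (6.62 and 8.45), MYOCD, the smooth muscle coactivator of SRF (5.70 and 9.10), and VCL, vinculin (7.39 and 6.34, in repeated sequence), led the SRF list beside CNN1. ACTA2, the myofibroblast actin, had no one-sided region among 5 and had a promoter peak of 9.48, 11.0, 11.8 and 10.5 in the 4 libraries in the order D2 soft then D2 stiff.

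Collagen genes had 26 stiff-only regions of 267 (9.74%, against 7.17% of all regions) and 1 soft-only region, in COL5A2 (6.02 and 3.19). The most lay nearest to COL4A1, COL4A2 and COL8A1 with 4 each and COL3A1 with 3. The promoter region of COL1A2, a chain of the main fibrillar collagen of scars, 608 bp inside the gene at chr7:94024634-94024996, had 8.19 and 9.93 on the stiff matrix and no peak on the soft matrix on day 2. On day 4 it had 5.14 and 6.31 in the D4 soft lists, with 6.80 and 7.56 in the D4 stiff lists. The shared promoter of COL4A3 and COL4A4, basement membrane chains, had 6.72 and 4.91 on day 2 stiff and peaks in all 4 day 4 lists. COL1A1 had 3 regions, all in every list.

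Other matrix genes had shares near or under the 7.17% of all regions, with 19 stiff-only regions of 282 (6.74%) for glycoproteins and proteoglycans, 6 of 82 (7.32%) for crosslinking enzymes and 10 of 187 (5.35%) for proteases and their inhibitors. POSTN, periostin, had a region 152 kb away with 7.95 and 11.3, TNC, tenascin C, one 80.0 kb upstream with 8.24 and 9.93, and THBS2 one 6 bp from its start with 9.62 and 8.41. The THBS2 promoter as a whole was not stiff-only, since within 1 kb of the start D2 soft replicate 2 had a peak of 11.8 and the stiff lists had peaks of 9.69 and 9.47. Promoters of LOXL1, a lysyl oxidase (5.86 and 5.17), SDC4, a syndecan (4.87 and 4.12), and MMP19 (4.52 and 4.25) were stiff-only on day 2 and had peaks in all 4 day 4 lists. P4HA2, a collagen prolyl hydroxylase, had an intronic region with 6.93 and 10.6, and TIMP3 one with 6.70 and 8.67.

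Integrin genes had 10 stiff-only regions of 140 (7.14%) and focal adhesion and actin linker genes 28 of 363 (7.71%), both near the 7.17% of all regions. The focal adhesion and actin linker genes also had 2 soft-only regions, which lay near TNS1. TNS1 also led the stiff-only side, with a region 424 kb away at 10.8 and 11.4 that on day 4 had peaks in the stiff lists only (9.39 and 8.22). PARVA, parvin, with 8.11 and 10.8, and LPP, with 7.56 and 8.05, followed. ITGB6, a receptor that activates latent TGF-beta, was nearest to a region in an intron of RBMS1 (8.57 and 9.18).

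TGF-beta pathway genes had 26 stiff-only regions of 324 (8.02%, against 7.17% of all regions), led by ACVR2A (11.4 and 9.09, at 970 kb), TGFB2, SMAD2 (6.66 and 10.7) and LTBP1, which tethers latent TGF-beta to matrix (7.57 and 9.30, with both an AP-1 and a TEAD motif). PDGF and receptor tyrosine kinase genes had 12 of 217 (5.53%), with the best-ranked regions at HGF, hepatocyte growth factor (7.82 and 9.39), IGF1R, PDGFC and PDGFD. MAP kinase pathway genes had the smallest share of the pathway lists, 10 of 294 (3.40%), and 3 soft-only regions (1.02%), near the ERK and p38 phosphatase genes DUSP5 and DUSP10. Stellate cell factors had 39 of 571 (6.83%) and 2 soft-only regions, with GATA6 (11.4 and 12.9) and SOX9 (11.1 and 11.1) first. RUNX2 had a soft-only intronic region (5.27 and 4.92). As a reference, ribosomal protein genes had 7 of 88 (7.95%). The shares of all these lists, 3.40% to 11.3%, are counts of regions that share genes and libraries, and no list was tested. Of the cell type marker lists described below, the endothelial genes had a higher share than any of these, 4 of 31 regions (12.9%).

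A further list held the matrix, actin and AP-1 genes singled out in the study of these libraries, so that counts over it are not independent of them. Of its 10 genes COL8A1, VCAN and JUN had stiff-only regions, 7 of 107 regions in all (6.54%, against 7.17% of all regions), and none had a soft-only region. COL8A1, a short-chain collagen gene, had 4. The best ranked of these, 61.1 kb upstream at chr3:99295890-99296500, had 9.32 and 7.47 on day 2 and 5.76, 3.78, 8.06 and 7.07 on day 4 in the order D4 soft then D4 stiff. The region in VCAN, versican, at chr5:82863707-82864362, with a TEAD motif, had 7.73 and 9.14 on day 2 and 7.85 to 8.55 in the 4 day 4 lists. ACTG2 had no day 2 region nearest to it, and ITGB2, IGFBP3, TIMP4, MMP2, MMP9 and ACTA2 had no one-sided region.

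The TEAD motif was found more often in stiff-only than in soft-only regions. The TEAD motif lay within 100 bases of the summit in 1361 stiff-only regions, 23.8%, in 29 soft-only regions, 9.83%, in 17.4% of regions in 1 soft and 1 stiff list, in 17.9% of regions in all 4 lists and in 18.8% of all merged regions. The order of stiff-only above all merged regions above soft-only was the same in lists of equal length (26.1%, 18.9% and 16.03%) and without D2 soft replicate 1 (23.5%, 18.9% and 14.2%). In lists of equal length, however, 24.9% of soft-only and 8.92% of stiff-only regions lay within 1 kb of a start. The motif was rarer there, in 8.97% of all merged regions of the full lists against 21.0% beyond 1 kb. The part of position in the order at equal length was not tested, and the splits that follow are of the full lists. Beyond 1 kb from a start the share was 25.02% in stiff-only, 10.4% in soft-only and 22.4% in regions in all 4 lists. Within the regions of lowest, middle and highest GC content of the windows the stiff-only shares were 26.3%, 27.1% and 14.2%, and those of regions in all 4 lists 23.2%, 24.3% and 10.5%. Leaving out repeated sequence gave 23.7% in stiff-only and 9.79% in soft-only regions. These shares are descriptions without a test.

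For the AP-1 motif that order depended on the setting, and it held without D2 soft replicate 1 only. In the full lists the AP-1 motif was found in 30.7% of stiff-only, 32.9% of soft-only, 28.3% of all-list and 28.3% of all merged regions. In lists of equal length stiff-only regions had 35.7%, all merged regions 30.2% and soft-only regions 30.4%. Without D2 soft replicate 1 these shares were 31.5%, 28.8% and 24.4%. The stiff-only share was thus below the soft-only share in the full lists and above it in the other 2 settings. Beyond 1 kb from a start the AP-1 motif was less frequent in stiff-only regions, at 32.7%, than in regions in all 4 lists, at 39.2%. The stiff-only share there was close to those of all merged regions (33.2%), regions in 1 soft and 1 stiff list (34.0%) and soft-only regions (34.2%). Stiff-only and soft-only regions with the RUNX motif TGTGGT were 17.6% and 23.1%, and 17.9% and 17.9% without D2 soft replicate 1. The GC box GGGCGG was found in 9.55% of stiff-only, 7.80% of soft-only and 24.4% of all-list regions, and the CArG box of SRF in 1.10%, 1.02% and 1.06%. Both strands were searched, and a match is a match of letters only.

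**Figure D4:**
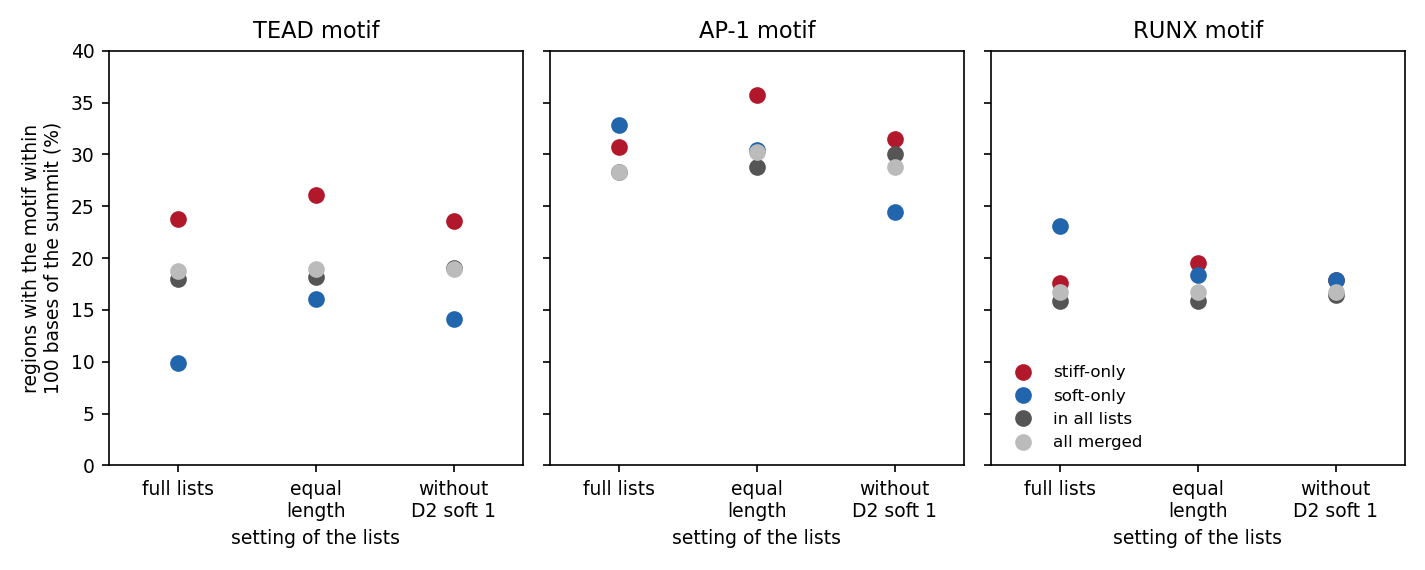
Share of regions (vertical axis, percent) with the TEAD, AP-1 and RUNX motif within 100 bases of the summit, in the full lists, in lists of equal length and without D2 soft replicate 1. Points are stiff-only, soft-only, all-list and all merged regions. For TEAD the stiff-only points, 23.5% to 26.1%, lie above and the soft-only points, 9.83% to 16.03%, below the others in each setting.

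At the 25367 regions in all 4 lists, within-list ranks of fold enrichment did not separate the matrices. The ranks were turned into normal scores and fitted with limma, which called 0 regions higher and 0 lower on the stiff matrix at an adjusted p under 0.05. At an unadjusted p under 0.05 there were 787 higher and 571 lower, 5.35% of the regions. Both stiff ranks were above both soft ranks in 4168 regions (16.4%), and the reverse held in 4407 (17.4%). Spearman's rho between lists over these regions was 0.595 for the 2 soft libraries, 0.744 for the 2 stiff libraries, 0.746 and 0.763 for D2 soft replicate 2 with each stiff library, and 0.583 and 0.560 for D2 soft replicate 1 with each of them. D2 soft replicate 2 was thus ranked as close to the stiff libraries as these were to each other. Without D2 soft replicate 2, limma called 297 higher and 94 lower, a fit in which the soft side is the shallow library alone and is assumed to vary like the stiff side.

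The region with the lowest p, at chr6:15793213-15793825, 130 kb upstream of DTNBP1, had fold enrichments of 3.12 and 5.41 in the D2 soft lists against 10.8 and 14.6 in the D2 stiff lists. Its ranks among the 25367 regions were 25313 and 24123 against 8609 and 2272, a difference of 3.14 ± 0.568 (SE) normal scores with a limma adjusted p of 0.188. Day 4 values were 10.5 and 8.21 (D4 soft) against 12.2 and 11.2 (D4 stiff). The next, all with an adjusted p of 0.923 in limma, were nearest to GLDC (3.12 and 6.01 against 12.4 and 10.1), H2AZ1 (4.07 and 7.70 against 12.7 and 14.7), FOXI1 (6.21 and 10.8 against 17.4 and 17.0) and SMARCA5 (3.04 and 4.21 against 7.21 and 8.99). GLDC encodes a subunit of the glycine cleavage system and H2AZ1 the histone variant H2A.Z. In the other direction they were nearest to KCNRG (7.44 and 8.19 on the soft, 3.32 and 5.20 on the stiff matrix), AP1G1, TMEM182, RBMS1 and ACP6. The TEAD motif was in 2 of the 5 regions higher on the stiff matrix (GLDC and H2AZ1) and in 1 of the 5 lower ones (RBMS1). In all 10 regions the 2 matrices did not overlap in rank, which follows from their choice by lowest p in the same libraries. Among all 25367 regions, both stiff ranks were above both soft ranks in 16.4% and below in 17.4%. None of the 10 passed the test.

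The stiff ranks were more often the higher ones at distal regions than near starts. Within 1 kb of a start, both stiff ranks were above both soft ranks in 13.4% and below in 19.8% of 8197 regions. Beyond 1 kb the shares were 17.9% and 16.2% of 17170. Median scores within 1 kb were 0.0708 and 0.0310 in D2 soft and 0.0756 and -0.0766 in D2 stiff. Beyond 1 kb they were -0.0385 and -0.0168 in D2 soft and -0.0372 and 0.0353 in D2 stiff. In these medians D2 stiff replicate 2 alone lay below both soft libraries near starts and above both beyond 1 kb, and D2 stiff replicate 1 did not. Among distal regions with a TEAD motif they were 20.9% and 13.6%, and the median difference was 0.0913 normal scores. Those with both motifs had 21.7% and 13.3%, with a median of 0.127, and those with neither had 16.6% and 18.1%, with a median of -0.0344. By library, the TEAD class had medians of -0.0112 and 0.0018 in D2 soft and 0.0684 and 0.132 in D2 stiff. The both-motif class had 0.0761 and 0.206 in D2 soft and 0.197 and 0.360 in D2 stiff, so the libraries of the matrices overlapped there. The median differences are small beside the median residual SD of 0.466, and the fit called 0 regions in each class. On day 4 the median differences of the TEAD and both-motif classes were -0.0241 and -0.0449.

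The day 4 lists were not used to choose the regions and give a second reading of them. Peaks were found at 55.2% and 43.5% of stiff-only regions in the D4 soft lists and at 69.2% and 75.9% in the D4 stiff lists. For soft-only regions the shares were 58.3% and 46.1%, and 64.4% and 62.4%, so both D4 stiff lists held more of these too. The D4 stiff libraries were deeper, with 3.15 and 2.87 fragments per kb against 2.69 and 2.72. Both D4 stiff lists and neither D4 soft list had a peak at 667 stiff-only regions (11.6%), and the opposite was found at 59 (1.03%). Among all merged regions these were 3960 (4.96%) and 599 (0.75%), among soft-only regions 23 (7.80%) and 13 (4.41%). Regions in 1 soft and 1 stiff list on day 2, which belong to neither side, had 623 (8.93%) and 117 (1.68%). The 2 directions stood at a ratio of 11.3 in stiff-only, 1.77 in soft-only, 5.33 in those of 1 soft and 1 stiff list and 6.61 in all merged regions, but also of 13.4 in regions in all 4 day 2 lists, where 94 and 7 regions were one-sided on day 4.

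With all 8 lists cut to equal length, 110 of 1569 stiff-only regions (7.01%) were stiff-only on day 4 as well and 45 (2.87%) were soft-only. Of 1248 soft-only regions 45 (3.61%) were stiff-only and 64 (5.13%) soft-only on day 4, and of all 44340 regions the shares were 2.36% and 2.01%. In this setting each side of day 2 leaned to its own side on day 4, with ratios of stiff-only to soft-only of 2.44 and 0.703 against 1.17 in all regions. Of the stiff-only regions in the full lists 533 (9.30%) were among these 1569, 34.0% of the latter. Of the soft-only regions 32 (10.8%) were among the 1248, 2.56% of the latter, so the soft-only regions of this setting were almost wholly other regions than those of the full lists. For the 24220 regions in all 8 lists, the rank differences between the matrices on day 2 and on day 4 had a Pearson's r of 0.0948 and a Spearman's rho of 0.0870 across regions, which share libraries and are not independent replicates.

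**Figure D5:**
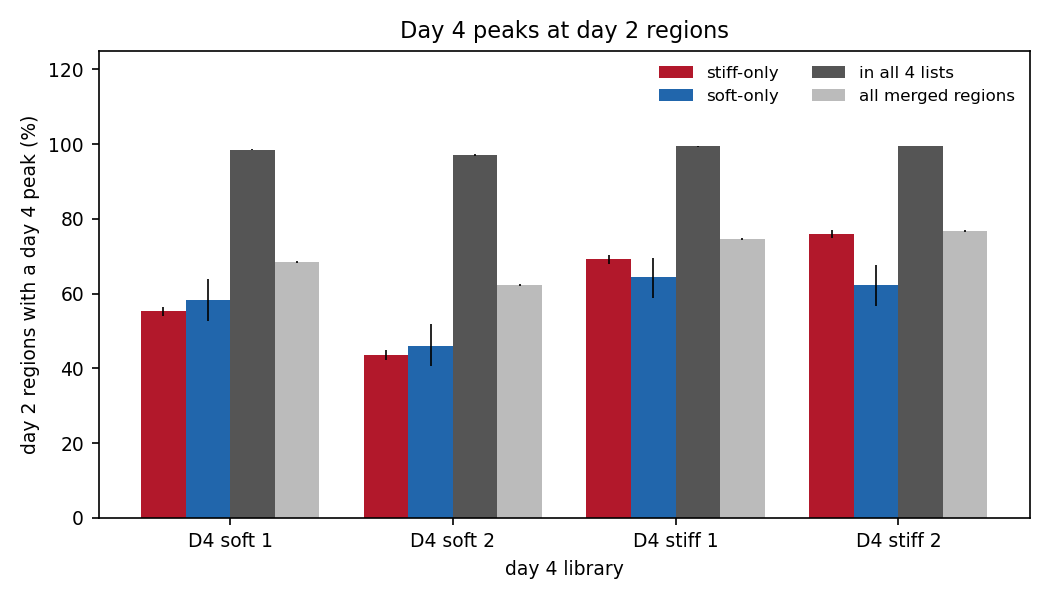
Share of day 2 regions (vertical axis, percent) with a peak in each day 4 library (horizontal axis), for stiff-only, soft-only, all-list and all merged regions. Error bars are Wilson 95% intervals that cover counting error only. Stiff-only bars stand at 55.2% and 43.5% in the D4 soft lists and reach 69.2% and 75.9% in the D4 stiff lists.

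Many but not all markers of the labelled cell type had a promoter peak on both matrices. Of 12 stellate cell genes, 7 had a promoter peak in all 4 day 2 lists (ACTA2, COL1A1, PDGFRB, VIM, TCF21, LHX2 and TAGLN), and DES, desmin, had none in any. COL1A2 had one in both stiff lists and neither soft list, and LRAT in D2 soft replicate 2 alone. HAND2 lacked one in D2 soft replicate 1, and GATA4 in D2 soft replicate 1 and D2 stiff replicate 1. Such peaks numbered 7 and 10 in the D2 soft lists, 9 and 10 in the D2 stiff lists. Of the hepatocyte genes ALB, APOA1, APOB and HNF4A had no promoter peak, with at most 1 of 6 genes in a library. Cholangiocyte genes had 0, 1, 2 and 2 of 4 in the order D2 soft then D2 stiff, KRT19 and KRT7 with none in any. The promoter of EPCAM had a peak in both stiff lists (12.4 and 6.43) and in neither soft list on day 2, and in all 4 day 4 lists, and that of SOX9 lacked one in D2 soft replicate 1 alone. Of the leukocyte genes PTPRC, CD3E and SPI1 had none and CD68 had one in all 4. Endothelial genes had a promoter peak in 0, 1, 1 and 3 of 3 in the same order. PECAM1, also on that list, was not found among the protein-coding starts and was not counted. The part of other cell types in the one-sided regions was not tested.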

How the data were processed

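ATAC-seq was carried out on LX-2 cells, and the authors aligned reads to hg19 with Bowtie2 2.4.1 and ran MACS2 separately for every library, with a q-value limit of 0.05, per the labels and the methods. Read filters, the treatment of Tn5 offsets and the MACS2 options were not given in the sources used here. Fold enrichment, as deposited, is the ratio of summit pileup over that library's local background, and the deposited −log10 p and −log10 q refer to that background. The deposited score is derived from q and was not used. The other deposited column gives the summit position. Columns are comparable within a list only, so fold enrichment was ranked within lists. Precision is limited by depth, and intervals cover counting error only.

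Depth was estimated from the lists under the MACS2 Poisson model, as the lowest background pileup over the shortest peak of the list. Pileups could be recovered for all but 14 of 466883 peaks, to a relative tolerance of 0.005 in p. Peaks of the 4 day 2 lists were merged at an overlap of at least 1 bp with Python 3.11.15 and pandas 2.3.3. The nearest of 78701 protein-coding starts came from GENCODE release 44 lifted to GRCh37, and coordinates are 1-based. Motifs were searched in 201 bases around the summit of the best-ranked peak.

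Ranks at regions in all 4 lists were turned into normal scores. These were fitted with limma 3.58.1 in R 4.3.3 on the 4 day 2 libraries, with Benjamini-Hochberg adjusted p under 0.05 called. The procedure was also run on simulated pileups, the outcome of which is not reported here, so the power of the fit is not given. Groups and replicate numbers came from the labels. Named regions were the 10 best-ranked one-sided regions of each side by mean percentile, the 5 best of each within 1 kb of a start, the 5 lowest limma p in each direction, the 5 genes with most stiff-only regions, up to 4 genes per gene list by best-ranked region, and the genes of the list taken from the study. Genes named for their counts within a list, and those said to have no region, were named after the values were seen, and regions on chromosome 8 (231 stiff-only, 14 soft-only) were counted but not named. Of the sequences that the rule allowed, repeated ones were passed over. Members and lists were chosen with earlier results of these data known. Alternatives covered the q threshold, list length, summit windows, peaks in 1 library, merging over 8 lists, start sets, scaling, each library left out and a replicate block.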

Additional observations from a re-analysis of the deposited data

How the results depend on the processing

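Stiff-only regions outnumbered soft-only regions in every setting tried, by 5730 to 295 in the full lists, 5763 to 244 at q up to 0.01 and 5588 to 286 without repeated sequence. The sizes were not stable. With equal list lengths 1569 were stiff-only against 1248 soft-only, summit windows gave 622 soft-only, and a peak in at least 1 library 21944 and 7247. Leaving out 1 library gave 6537 to 22244 stiff-only and 658 to 6033 soft-only regions. The lowest and the highest soft-only numbers came without D2 stiff replicate 1 and without D2 soft replicate 1, whose removal leaves a side with 1 library and so loosens its condition.

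The share of stiff-only regions that were one-sided to the stiff matrix on day 4 was 4.14% with day 2 lists of equal length, 10.7% with summit windows, 9.37% with a peak in at least 1 library and 5.78% to 11.2% without 1 library. It was 7.01% with all 8 lists of equal length, a setting chosen after seeing the data, as was leaving out repeated sequence. The AP-1 share was 35.7% with equal length, 29.4% with summit windows, 26.2% with a peak in at least 1 library and 26.6% to 31.5% without 1 library. The TEAD share was 26.1%, and 20.5% with a peak in at least 1 library, and 20.6% to 23.5% without 1 library. The share within 1 kb of a start was 13.2% with summit windows, 8.12% with regions merged over 8 lists, 13.5% with starts of all annotated genes and 8.66% to 16.5% without 1 library. The causes were not tested.

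At regions in all 4 lists limma called 0 under 5 other settings (ranks of −log10 p, quantile-normalised log2 fold enrichment, 1 peak per library, q up to 0.01, variance trend with a robust prior), with the smallest adjusted p from 0.056 to 0.925. With all 8 libraries in 1 fit it called 1 region higher. Leaving out 1 library gave 0 to 297 higher and 0 to 94 lower, with calls only without D2 soft replicate 2. The labels give the groups the same replicate numbers, and a fit with the replicate number as a block called 3 regions higher and 1 lower. Deviations of same-numbered libraries from their group means had a correlation of 0.0705 across the regions in all 4 lists. The names of the peaks within the lists carry other numbers than the labels for D2 stiff. Neither can decide whether same-numbered libraries shared a culture or batch. Pairing is therefore not known, and the libraries were not treated as pairs in the main fit. The interaction of stiffness and day had 0 regions called by limma, 653 and 624 at an unadjusted p under 0.05. D2 soft replicate 1 had 0.780 fragments per kb, and the part of its depth in the calls was not tested.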
